A study of Mus musculus with 5 samples.

Results

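The genes described here are 47 that copy DNA or run S phase, the part of the cell cycle in which DNA is copied. They were chosen by gene symbol for their known function: the subunits of the replication machine, the enzymes that supply its nucleotides, the factors that rebuild chromatin behind it and the regulators that start it. All 47 were found among the 21983 gene symbols of the count table, and all 47 passed the filter on low counts, with a smallest single count of 33 reads (Orc1 in control 2). RNA was sequenced from primary microglia, the macrophages that live in brain tissue, of mouse brain. Of the 5 libraries, 2 are labelled knockout, with the genotype Cx3cr1CreERT2 Ythdf2fl/fl, and 3 are controls with the genotype Ythdf2fl/fl. The floxed Ythdf2 alleles are common to both groups, and only the labelled knockouts carry the inducible Cre, which is driven from Cx3cr1, a locus that other macrophages use as well as microglia. The labels used here give no age, no tamoxifen schedule and no statement that libraries came from separate animals or cultures, so a p-value reflects the spread of these libraries alone, part of which may be technical.

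Replication is prepared in G1, when the origin recognition complex, Cdc6 and Cdt1 load the ring of Mcm2 to Mcm7 onto DNA. In S phase, Cdc45 and the GINS complex bind that ring and turn it into the running helicase, polymerases alpha, epsilon and delta synthesise the strands, and the sliding clamp Pcna, loaded by the Rfc complex, holds polymerases and other enzymes on the DNA. E2F transcription factors switch many of these genes on in cells that leave the resting state, so their mRNAs are low in resting tissue. Microglia of the healthy adult brain divide slowly and can divide quickly after injury or in culture. In bulk RNA, fewer cycling cells and less of these mRNAs per cycling cell cannot be told apart.

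Library totals ran from 13947500 to 19577217 counts, with 13991 to 14673 genes detected. Ythdf2, the m6A reader gene that the Cre is meant to delete, stood at 103 and 127 CPM in labelled knockouts 1 and 2, against 57, 69.2 and 68.8 CPM in controls 1 to 3, with a log2 fold change of 0.83 (SE 0.207). It was therefore not lower where the labels call for a deletion, and all directions given here rest on those labels. Reads from exons outside the deleted part would still be counted. Cx3cr1, the gene whose locus drives the Cre, was at 337 and 97.7 CPM in the labelled knockouts, against 682, 992 and 681 CPM in the controls, so both labelled knockouts lay below every control. It had -1.85 (SE 0.571) as its log2 fold change. Of the microglial marker genes fixed for this check, all 9 had counts in at least 1 library, and their summed level was 3815 and 6396 CPM in the labelled knockouts and 7084 to 7486 CPM in the controls. Siglech, one of the defining markers, was at 0 and 0.108 CPM in the labelled knockouts and at 0.0743 to 1.2 CPM in the controls. CPM are counts divided by each library's TMM-scaled size.

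No replication gene passed a test between the genotypes over all 5 libraries. In edgeR's quasi-likelihood test 0 of the 47 genes passed an adjusted p of 0.05, against 0% of the 12543 genes tested, and the smallest adjusted p among the 47 was 0.575 (Pcna). At an unadjusted p under 0.05 edgeR found 2 of the 47 (4.26%), E2f2 and Pcna, against 6.68% of all genes tested. DESeq2 called 0 of the 47, against 1.68% of its genes (1.06% higher and 0.623% lower), with 2 at an unadjusted p under 0.05, and limma-voom called 0, against 0%, with 1 at an unadjusted p under 0.05. Both labelled knockouts lay above all 3 controls for 2 of the 47 genes (E2f2 and Rfc2), against 9.85% of all genes tested, and below them for 1 (Pcna), against 10.4%; either way this was 6.38% of the 47, against 20.3% of all genes.

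These counts depended on single libraries. With a library left out, DESeq2 called 1 of the 47 without labelled knockout 2 (E2f2, against 3.71% of its genes) and 3 without control 3 (Clspn, E2f2 and Rrm2, against 2.23%). It called 0 without labelled knockout 1, control 1 or control 2, against 1.24%, 0.64% and 0.764%, and edgeR called 0 in every such case. Without labelled knockout 2 the remaining labelled knockout lay above all controls for 31 genes and below them for 2, against 35.4% and 36.2% of all genes. Without labelled knockout 1 it lay above for 2 and below for 15, against 24.8% and 25.6%. Without control 3 both labelled knockouts lay above the controls for 22 genes and below for 1, against 16.4% and 15.9%. Leaving out control 1 gave 2 in each direction, against 12.6% and 13.6%, and leaving out control 2 gave 2 above and 5 below, against 14.9% and 17.1%.

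The log2 fold change was positive for 35 of the 47 genes and negative for 12, with a median of 0.32 over the 47 and 0.01 over all genes tested, of which 51.1% were positive. Without the library labelled knockout 1, the median over the 47 was -0.30, 38 of the 47 were negative, and the median over all genes was -0.06. Standard errors ran from 0.206 (Rfc2) to 0.832 (Rrm2) with a median of 0.477, which is more than the median fold change.

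**Figure D1:**
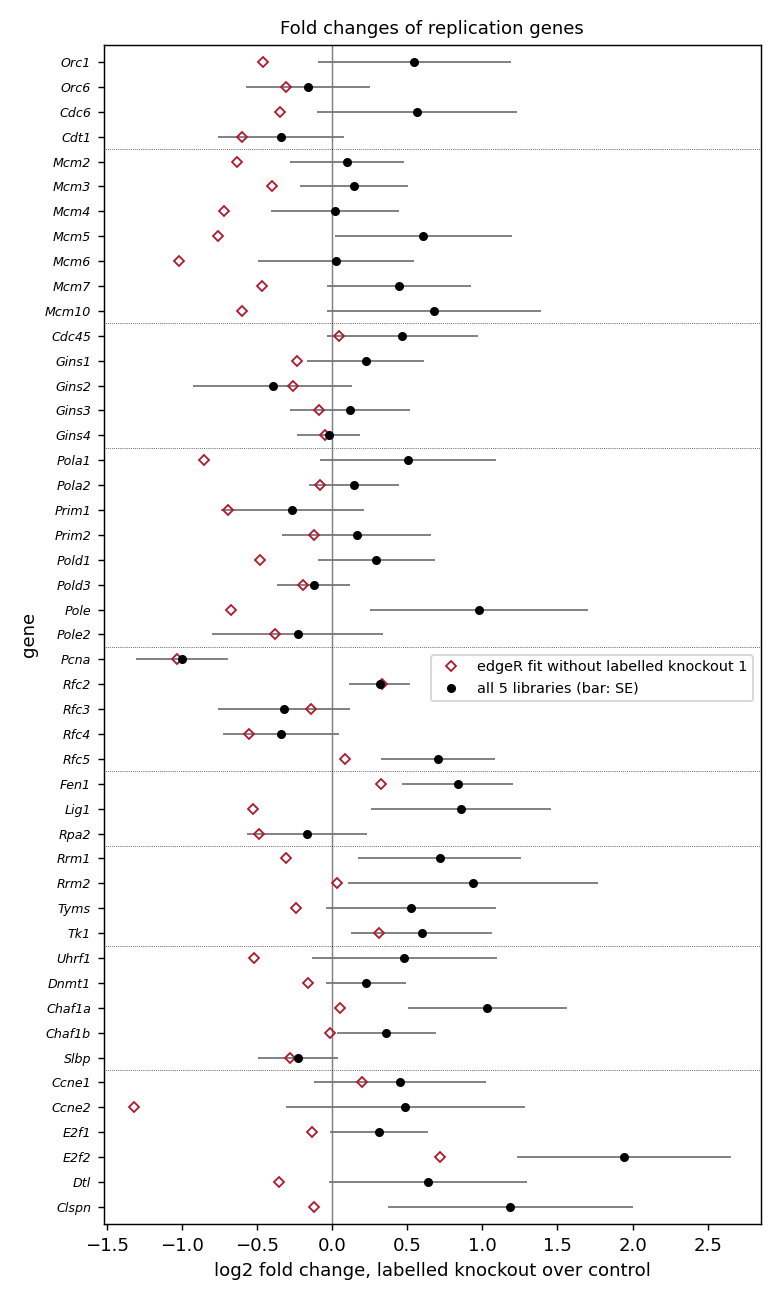
Log2 fold change (labelled knockout over control, horizontal axis) of each of the 47 genes, grouped from top to bottom by role in the order of the text, with dotted lines between roles. Filled circles with bars give the edgeR value and its standard error over all 5 libraries, and open diamonds the value without the library labelled knockout 1: 38 of the 47 diamonds lie below 0, against 12 of the 47 circles.

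The large differences ran between libraries, across the genotypes. The library labelled knockout 1 held the highest level of 30 of the 47 genes (63.8%, against 30.3% of all genes tested), and control 3 that of 16 (34.0%, against 22.5%). The remaining gene, Rfc2, was highest in labelled knockout 2, as were 21.1% of all genes tested. For 39 of the 47 genes (83.0%) the labelled knockout 1 and control 3 were the top pair of libraries, which was so for 7.36% of all genes tested; this pair was picked out after the values were seen, and no test was made of it. The lowest library was the labelled knockout 1 for 1 gene (Gins4) and the labelled knockout 2 for 13, against 33.1% and 17% of all genes. It was control 1 for 13 and control 2 for 20, against 13.9% and 12.4%, and control 3 for 0, against 23.5%. Neither control 1 nor control 2 was the highest for any of the 47, against 13% and 13.1% of all genes.

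Within each genotype the replicates were far apart. The labelled knockout 1 stood above the labelled knockout 2 for 43 of the 47 genes, against 48.7% of all genes tested, with a median log2 ratio of 0.84, against -0.03 over all genes. Control 3 stood above both other controls for 46 of the 47, against 38.3% of all genes, with a median log2 ratio of 0.79 over control 1 and 0.80 over control 2. The mean deviation of the 47 genes from their own means, on the log2 CPM scale, was 0.65 and -0.31 in the labelled knockouts 1 and 2, against -0.39, -0.43 and 0.48 in controls 1 to 3. The 2 groups overlapped on this scale, with control 3 above a labelled knockout.

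**Figure D2:**
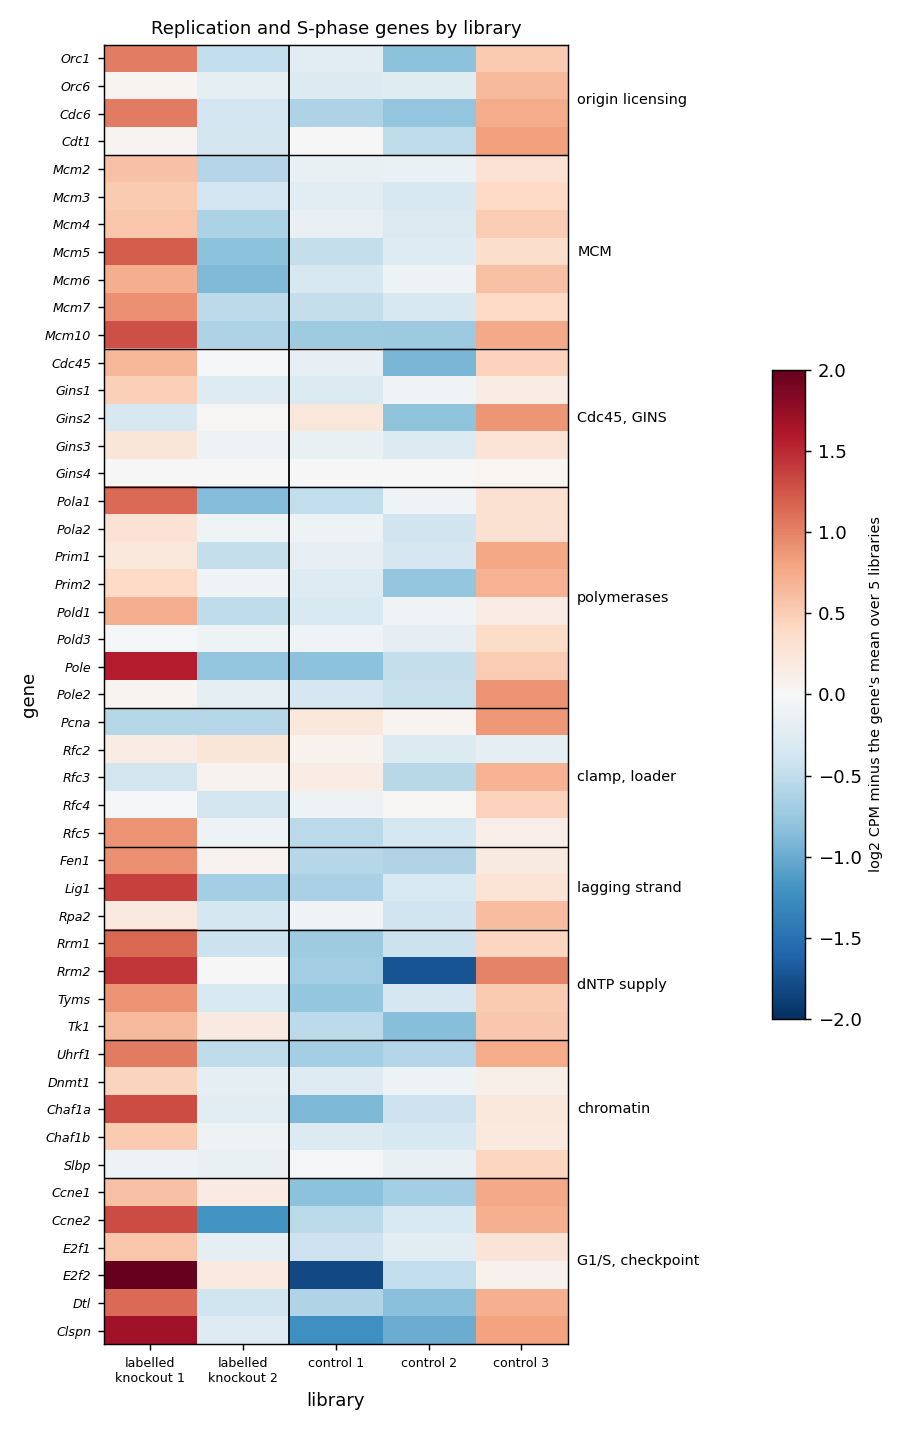
Level of each of the 47 genes (rows, grouped by role) in each library (columns, labelled knockouts left of the line), centred on the mean of its 5 log2 CPM values; red is above and blue below that mean. The columns of the labelled knockout 1 and of control 3 are mostly red and the other 3 mostly blue, with Pcna, Gins2, Gins4 and Rfc2 to Rfc4 among the rows that depart from this.

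Origin licensing genes showed the library pattern plainly. Cdc6, the ATPase that loads the helicase, stood at 12.8 and 4.7 CPM in labelled knockouts 1 and 2, against 3.96, 3.48 and 10.3 CPM in controls 1 to 3, and its log2 fold change was 0.57 (SE 0.664). Orc1, the largest subunit of the origin recognition complex, was at 7.85 and 2.65 CPM in the labelled knockouts, against 3.21, 2.09 and 5.5 CPM in the controls. In both genes control 3 exceeded the labelled knockout 2, so the groups overlapped. Cdt1, the partner of Cdc6 in loading, was at 85.5 and 63.7 CPM in labelled knockouts 1 and 2, against 81.8, 57.4 and 144 CPM in controls 1 to 3, where the top library was a control. Its log2 fold change of -0.34 was 0.10 without control 3. Orc6, the smallest subunit of the complex, was also highest in control 3, at 8.74 and 7.46 CPM in the labelled knockouts, against 6.91, 7.1 and 13.2 CPM in the controls.

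Before correction for length, the helicase ring had one order of the labelled knockouts and control 3. All 6 genes from Mcm2 to Mcm7 were highest in the labelled knockout 1, second in control 3 and lowest in the labelled knockout 2. The extremes of each gene were thus both labelled knockouts. Corrected for transcript length, the labelled knockout 2 was still the lowest for all 6. Control 3 was then above the labelled knockout 1 for Mcm3 (108 against 104 CPM), Mcm4 (67.3 against 61.6) and Mcm6 (198 against 178). The labelled knockout 1 remained the highest for Mcm2, Mcm5 and Mcm7. Mcm5 stood at 143 and 35.2 CPM in labelled knockouts 1 and 2, against 44.4, 51.8 and 79.5 CPM in controls 1 to 3, a mean of 89.2 ± 76.4 CPM in the labelled knockouts (SD, n = 2) and 58.6 ± 18.5 CPM in the controls (SD, n = 3). Mcm7 was at 78.2 and 29 CPM in the labelled knockouts, against 29.9, 33.5 and 54.7 CPM in the controls, and Mcm10, which is no part of the ring and helps to activate it, at 33.5 and 8.86 CPM in the labelled knockouts, against 8.3, 8.17 and 23.3 CPM in the controls. The ratio of the labelled knockout 1 to the labelled knockout 2 was 4.07 for Mcm5, 2.69 for Mcm7 and 3.78 for Mcm10, and it ran from 1.86 (Mcm3) to 3.04 (Mcm6) in Mcm2, Mcm3, Mcm4 and Mcm6. Edge values of the log2 fold change in the 7 genes were 0.02 for Mcm4 and 0.68 for Mcm10 (SE 0.427 and 0.713). Without the labelled knockout 1 all 7 were negative, from -1.02 (Mcm6) to -0.40 (Mcm3).

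Per length, the gap between the highest and the lowest ring subunit was similar in all libraries, but their order was not. As CPM per kilobase of the longest annotated transcript, the 6 genes lay between 18.3 (Mcm4) and 45.3 (Mcm6) in the labelled knockout 1 and between 8.03 (Mcm4) and 17.1 (Mcm3) in the labelled knockout 2, against 10.1 to 22 in control 1, 10.1 to 25.6 in control 2 and 17.6 to 41.0 in control 3. The highest subunit exceeded the lowest by 2.48-fold and 2.13-fold in the labelled knockouts, and by 2.18-fold, 2.53-fold and 2.33-fold in the controls. Mcm5 was at 42.4 CPM per kilobase in labelled knockout 1, where Mcm3 was at 31.9, and at 10.4 in labelled knockout 2, where Mcm3 was at 17.1. Of all 47 genes, Pcna had the highest level per kilobase (111 as the mean of the 5 libraries), followed by Dnmt1 (33) and Cdt1 (32.1), and Orc1 the lowest (1.41).

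The genes that complete the helicase were less alike. Cdc45 stood at 10.6 and 6.49 CPM in labelled knockouts 1 and 2, against 5.91, 3.48 and 9.22 CPM in controls 1 to 3. Gins1, a subunit of the 4-part GINS complex, had the same top pair of libraries at 9.16 and 5.4 CPM in the labelled knockouts, against 5.28, 6.21 and 7.21 CPM in the controls, whereas Gins2 was highest in a control, at 8.27 and 10.5 CPM in the labelled knockouts, against 12.1, 5.83 and 19.2 CPM in the controls. Exons of Gins2 overlap 2758 bases of Gse1 on the other strand. Reads of 15 of the 47 genes could mix in this way with a neighbour on the other strand, since the strand setting of the counting was not given in the sources used here. Gins4 was nearly level, at 23.7 and 23.7 CPM in the labelled knockouts, against 24, 23.7 and 24.5 CPM in the controls, with a log2 fold change of -0.02 (SE 0.211). Corrected for transcript length it was not level, at 31.5 and 19.7 CPM in the labelled knockouts, against 20.7, 27.7 and 21.9 CPM in the controls. Gins3 was at 4.88 and 3.84 CPM in the labelled knockouts, against 3.36 to 4.98 CPM in the controls.

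The catalytic subunits of the polymerases had one order of the labelled knockouts and control 3. Pole, the catalytic subunit of polymerase epsilon, which makes the leading strand, stood at 69.3 and 13.4 CPM in labelled knockouts 1 and 2, against 13.1, 16.7 and 33.2 CPM in controls 1 to 3. Pola1, that of polymerase alpha, was at 48.4 and 12.1 CPM in the labelled knockouts, against 15.7, 21 and 27.2 CPM in the controls, and Pold1, that of polymerase delta, at 91.1 and 38.6 CPM in the labelled knockouts, against 44.6, 52.5 and 61.3 CPM in the controls. In all of these genes the labelled knockout 1 exceeded every control while the labelled knockout 2 lay below control 3 and at or below control 2. Their log2 fold changes were 0.98 (SE 0.724), 0.51 (SE 0.586) and 0.30 (SE 0.387), and all turned negative without the labelled knockout 1 (-0.67, -0.85 and -0.48). The ratio of the labelled knockout 1 to the labelled knockout 2 was 5.17 for Pole, against 1.19 for its partner subunit Pole2, 4.02 for Pola1, against 1.3 for Pola2, and 2.36 for Pold1, against 1.06 for Pold3. The longest transcripts of Pole, Pola1 and Pold1 are 7163, 5346 and 3496 bases, those of Pole2, Pola2 and Pold3 1706, 2878 and 3069 bases, so the catalytic subunits compared here differ from their partners in length too. Corrected for length, Pole was at 49.8 and 15.5 CPM in the labelled knockouts 1 and 2, and Pole2 at 4.03 and 2.45 CPM, so the ratios of this pair moved towards each other. Pola1 was then at 39.8 and 13.2 CPM there, with Pola2 at 29.7 and 20.9 CPM, and Pold1 at 86.1 and 38.1 CPM, with Pold3 at 43.2 and 39.3 CPM. The primase subunits Prim1 and Prim2, Pola2, Pold3 and Pole2 were all highest in control 3, with log2 fold changes from -0.26 (Prim1) to 0.17 (Prim2).

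The sliding clamp went another way from most of the machine it serves. Gins2 and Rfc3 were also highest in control 3 with negative log2 fold changes (-0.39 and -0.32), but their groups overlapped. Pcna stood at 106 and 105 CPM in labelled knockouts 1 and 2, against 182, 164 and 288 CPM in controls 1 to 3, so both labelled knockouts lay below every control, and the labelled knockout 1, which held the top level of most replication genes, was nearly level with the labelled knockout 2. Corrected for transcript length, Pcna was at 136 and 90.2 CPM in the labelled knockouts, against 159, 187 and 263 CPM in the controls, so the labelled knockouts were then apart and still below every control. The means were 106 ± 0.527 CPM in the labelled knockouts (SD, n = 2) and 211 ± 67.4 CPM in the controls (SD, n = 3), and the log2 fold change was -1.0 (SE 0.307). It did not pass over all genes tested (edgeR quasi-likelihood adjusted p = 0.575, DESeq2 adjusted p = 0.266). Leaving out each library in turn, the log2 fold change ran from -1.15 to -0.70. Relative to the median of Mcm2 to Mcm7 per kilobase, Pcna stood 2.40-fold and 6.34-fold higher in the labelled knockouts 1 and 2, against 8.35-fold, 6.94-fold and 8.50-fold in controls 1 to 3. In GENCODE M21 (GRCm38), Pcna is ENSMUSG00000027342.14 and spans 132249162 to 132253314 of chromosome 2 on the minus strand. The annotation holds processed copies named Pcna-ps1 and Pcna-ps2, which can share reads with it, so its count is uncertain to that extent.

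The clamp loader subunits, which are also parts of other loaders, did not move as a block. Rfc5 stood at 44.4 and 22 CPM in the labelled knockouts, against 16.3, 18.6 and 26.1 CPM in the controls, with a log2 fold change of 0.71 (SE 0.381), or 0.085 without the labelled knockout 1, and 499 bases of its exons overlap Wsb2. Rfc2 was at 50.3 and 53.7 CPM in the labelled knockouts, against 47.5, 37.6 and 40.1 CPM in the controls, a narrow range in which both labelled knockouts lay above all controls (log2 fold change 0.32 (SE 0.206), edgeR quasi-likelihood adjusted p = 0.884). Corrected for transcript length, the groups of Rfc2 overlapped, at 42.2 and 58.3 CPM in the labelled knockouts, against 47.9, 35.7 and 45.9 CPM in the controls. Exons of Rfc2 overlap 952 bases of Lat2, a gene on the other strand. Rfc3 and Rfc4 were highest in control 3: Rfc3 was at 8.45 and 11.5 CPM in the labelled knockouts, against 7.41 to 17.8 CPM in the controls, and Rfc4 at 5.06 and 3.95 CPM in the labelled knockouts, against 4.78 to 7.14 CPM in the controls. Among the 5 genes of the clamp and its loader, only Rfc5 had the labelled knockout 1 and control 3 as its top pair of libraries.

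Of the enzymes that finish the lagging strand, Fen1, the nuclease that trims flaps, stood at 78.6 and 43.8 CPM in labelled knockouts 1 and 2, against 28.2, 27.4 and 47.4 CPM in controls 1 to 3. The labelled knockout 1 was above all controls and the labelled knockout 2 just below control 3. Its log2 fold change was 0.84 (SE 0.371) and 0.33 without the labelled knockout 1, and its exons overlap 2039 bases of Tmem258 and Gm10143 on the other strand. Lig1, the ligase that seals the fragments, was at 162 and 39.4 CPM in the labelled knockouts, against 40.1, 51 and 75.9 CPM in the controls, where the labelled knockout 2 was the lowest library. Rpa2, a subunit of the protein that coats single-stranded DNA, was highest in control 3, at 15.8 and 10.9 CPM in the labelled knockouts, against 13.1, 10.5 and 21.3 CPM in the controls.

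Genes of nucleotide supply all had the labelled knockout 1 and control 3 as their top pair. Rrm2, the small subunit of ribonucleotide reductase and the one that is limited to S phase, stood at 34.2 and 12.8 CPM in labelled knockouts 1 and 2, against 7.79, 3.74 and 25.3 CPM in controls 1 to 3. Control 3 was 3.25-fold and 6.78-fold above controls 1 and 2, and the labelled knockout 2 lay above both of those and below control 3. Rrm1, the large subunit, was at 158 and 53.1 CPM in the labelled knockouts, against 43.5, 53.4 and 96 CPM in the controls, and Tk1, which salvages thymidine, at 25.6 and 18.4 CPM in the labelled knockouts, against 11.3, 8.93 and 23.5 CPM in the controls. Tyms, which makes thymidylate, had 12 and 5.08 CPM in the labelled knockouts and 3.65 to 9.14 CPM in the controls. All 4 were highest in the labelled knockout 1, with log2 fold changes from 0.53 (Tyms) to 0.94 (Rrm2). Without the labelled knockout 1 that of Tyms was -0.24 and that of Rrm2 0.036, and without control 3 that of Rrm2 was 2.03.

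Of the genes that restore chromatin, Chaf1a, the large subunit of the assembly factor CAF-1, stood at 55.4 and 19.3 CPM in labelled knockouts 1 and 2, against 11.9, 16.9 and 26 CPM in controls 1 to 3 (log2 fold change 1.03 (SE 0.528), edgeR quasi-likelihood adjusted p = 0.857). Without the labelled knockout 1 that fold change was 0.057. Its exons overlap 4648 bases of Ubxn6 on the other strand. Its partner Chaf1b was at 22.1 and 14.3 CPM in the labelled knockouts, against 12.6, 12.2 and 17.6 CPM in the controls. Uhrf1, which binds half-methylated DNA, had 72.5 and 24.8 CPM in the labelled knockouts and 22.1 to 59.1 CPM in the controls. Dnmt1, the maintenance methyltransferase that Uhrf1 recruits, was the gene with the highest mean CPM of the 47 and spread less, at 259 and 166 CPM in the labelled knockouts, against 160.5 to 207 CPM in the controls. Slbp, which binds the stem-loop of histone mRNAs, was near-level in 4 libraries and highest in control 3, at 23.7 and 22.8 CPM in the labelled knockouts, against 24.7, 22.7 and 34.1 CPM in the controls.

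Regulators of entry into S phase held the largest fold change of the 47. E2f2, an activating E2F, stood at 41.6 and 11.6 CPM in labelled knockouts 1 and 2, against 2.83, 7.16 and 10.9 CPM in controls 1 to 3, with both labelled knockouts above every control. The means were 26.6 ± 21.2 CPM in the labelled knockouts (SD, n = 2) and 6.95 ± 4.02 CPM in the controls (SD, n = 3), with a log2 fold change of 1.94 (SE 0.712). It did not pass over all genes (edgeR quasi-likelihood adjusted p = 0.691, DESeq2 adjusted p = 0.249). The log2 fold change was 0.72 without the labelled knockout 1 and 2.59 without the labelled knockout 2, and the labelled knockout 2 exceeded control 3 by less than 1 CPM. In the same annotation E2f2 is ENSMUSG00000018983.9 and spans 136172394 to 136196057 of chromosome 4 on the plus strand, with no exon of another annotated gene over its own. E2f1, the related activator, was at 58.3 and 34.7 CPM in the labelled knockouts, against 29.9 to 47.8 CPM in the controls.

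Clspn, which relays stalled forks to the checkpoint kinase Chk1, was at 35.6 and 9.19 CPM in labelled knockouts 1 and 2, against 4.65, 5.51 and 19.5 CPM in controls 1 to 3. Dtl, the receptor that marks Cdt1 for destruction on Pcna, was at 20.8 and 7.13 CPM in the labelled knockouts, against 6.16, 5.26 and 15.5 CPM in the controls. In both the labelled knockout 2 lay between control 3 and the other controls. The cyclin E genes, partners of Cdk2, differed in the labelled knockout 2: Ccne2 was lowest there, at 12.5 and 2.11 CPM in the labelled knockouts, against 3.39 to 8.25 CPM in the controls, while Ccne1 stood at 10.5 and 7.78 CPM in the labelled knockouts, against 3.9 to 11.9 CPM in the controls.

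**Figure D3:**
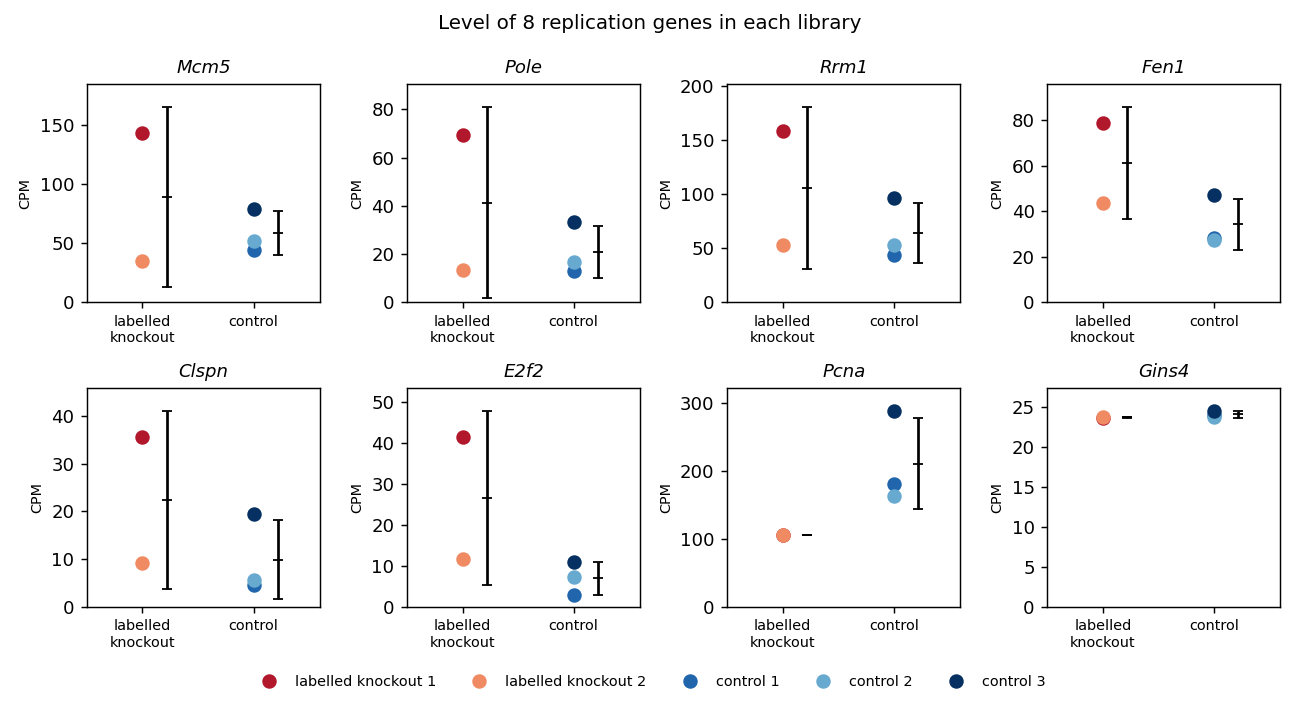
Level in CPM (vertical axis, from 0) of 8 genes in each library, with the labelled knockouts left of the controls; points are libraries and the bars beside them the mean and SD (n = 2 and n = 3). Mcm5, Pole, Rrm1, Fen1 and Clspn are highest in the labelled knockout 1 and overlap between groups, both labelled knockouts are above all controls for E2f2 and below them for Pcna, and Gins4 is nearly level.

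The labelled knockout 2 was placed differently by role. It lay above both control 1 and control 2 for 22 of the 47 genes, against 38.9% of all genes tested, and below both for 13, against 38.2%. All 6 genes from Mcm2 to Mcm7 were among the 13, with Pola1, Pold1, Prim1, Pcna, Rfc4, Lig1 and Ccne2. Of the G1/S and checkpoint genes 5 of 6 were among the 22 (all but Ccne2), and so were 3 of the 4 genes of nucleotide supply (all but Rrm1). Some of these were near ties. E2f1 was at 34.7 CPM in the labelled knockout 2 and 34.5 CPM in control 2, and Tyms at 5.08 and 5.01 CPM. Corrected for transcript length, E2f1 lay below control 2 (32.7 against 36 CPM). Rrm1 then lay above controls 1 and 2 (58.4 against 43.9 and 50 CPM). No test was made of this split, which was seen in the values.

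Promoters were compared for what the symbols had not used. RefSeq promoters (GRCm38.p6, 250 bases before to 50 after a gene's start) were matched by symbol for 39 of the 47 genes. The E2F consensus was searched as TTTCCCGC, TTTCGCGC, TTTGGCGC and TTTGCCGC on both strands; TTTGGCGCGAAA holds a match on each strand and counts for both. At least 1 promoter of 19 of the 39 genes (48.7%) held a match, against 4.7% of the 9872 tested genes with a promoter, and 40.4% of the 47 promoters of these genes did, against 2.26% of all 32851. The CCAAT box was found in 61.5% of the 39 genes and 42.8% of tested genes, and TTTGAA, the core of the CHR element of mitotic genes, in 15.4% and 14.2%. Matches are letters in a window and not measured binding. The labelled knockout 1 and control 3 were the top pair of libraries for 17 of the 19 genes with an E2F match and for 17 of the 20 without one.

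The promoters below belong to the genes the results turn on. They include a ring subunit with the common library pattern and the checkpoint gene with a wide range. The others are the gene with the largest fold change and the clamp gene, which lay below all controls in both labelled knockouts. Capitals mark the E2F matches, and each is written in the direction of its gene. Positions are counted from the RefSeq start. The Mcm6 matches start 110, 106 and 47 bases before it, the first pair overlapping on opposite strands. That of Clspn is at base 22, read on the other strand, and that of E2f2 at base 40. The E2f2 window ends at 136172323, before the GENCODE start of that gene at 136172394. A further RefSeq start of E2f2, and the Pcna window, hold no match to these letters.
Mcm6 (chr1:128359656-128359955, minus strand): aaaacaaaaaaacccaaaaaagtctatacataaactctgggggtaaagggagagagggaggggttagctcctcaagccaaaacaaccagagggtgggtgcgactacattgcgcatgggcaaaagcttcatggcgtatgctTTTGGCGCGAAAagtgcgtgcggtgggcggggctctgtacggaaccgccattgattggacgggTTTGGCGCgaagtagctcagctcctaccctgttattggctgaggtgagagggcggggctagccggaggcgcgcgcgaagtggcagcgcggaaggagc
Clspn (chr4:126556730-126557029, plus strand): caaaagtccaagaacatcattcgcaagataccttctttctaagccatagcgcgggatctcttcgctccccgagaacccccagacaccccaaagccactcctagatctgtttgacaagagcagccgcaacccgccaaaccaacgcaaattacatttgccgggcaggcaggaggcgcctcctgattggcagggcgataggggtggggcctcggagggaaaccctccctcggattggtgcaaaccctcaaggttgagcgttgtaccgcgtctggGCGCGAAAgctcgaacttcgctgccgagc
E2f2 (chr4:136172024-136172323, plus strand): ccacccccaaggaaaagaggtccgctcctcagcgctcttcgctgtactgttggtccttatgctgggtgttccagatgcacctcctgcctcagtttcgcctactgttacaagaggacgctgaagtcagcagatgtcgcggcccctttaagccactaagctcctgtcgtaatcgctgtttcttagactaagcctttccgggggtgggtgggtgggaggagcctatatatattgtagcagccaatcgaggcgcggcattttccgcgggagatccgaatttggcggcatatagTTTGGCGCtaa
Pcna (chr2:132253131-132253430, minus strand): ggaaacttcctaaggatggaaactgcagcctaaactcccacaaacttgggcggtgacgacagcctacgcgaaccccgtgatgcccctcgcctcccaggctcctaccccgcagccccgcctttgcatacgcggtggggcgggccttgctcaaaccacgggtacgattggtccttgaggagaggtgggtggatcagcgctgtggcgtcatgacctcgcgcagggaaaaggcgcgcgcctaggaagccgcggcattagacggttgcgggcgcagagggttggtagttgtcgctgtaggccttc

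Transcript length moved with which of the high libraries came first. Over all 12510 genes tested with an annotated length, the log2 ratio of the labelled knockout 1 to control 3 rose with the longest transcript (Spearman's rho 0.406 across genes, which share their libraries and are no replicates), and over the 47 genes rho was 0.571. Of the 13 genes with transcripts up to 2500 bases, 5 were highest in the labelled knockout 1 and 8 in control 3; of the 17 above 3500 bases, 15 were highest in the labelled knockout 1 and 1 in control 3. In the 47 the median log2 ratio was -0.18 up to 2500 bases and 0.42 above 3500 bases, against -0.52 and 0.26 in all genes tested. After each library was corrected for its trend on length, the labelled knockout 1 and control 3 were the top pair for 40 of the 47 genes (85.1%, against 8.05% of all genes), and the mean deviations were 0.66 and -0.34 in the labelled knockouts, against -0.45, -0.40 and 0.53 in the controls. The labelled knockout 1 was then the highest for 30 of the 47 (63.8%, against 25% of all genes) and control 3 for 16 (34%, against 31.9%). These are the counts seen before correction, though some genes changed library. The Pcna transcript is 1518 bases and the E2f2 transcript 4739. After this correction the groups did not overlap for 2 of the 47 genes, 1 in each direction, against 8.58% above and 13.4% below.

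**Figure D4:**
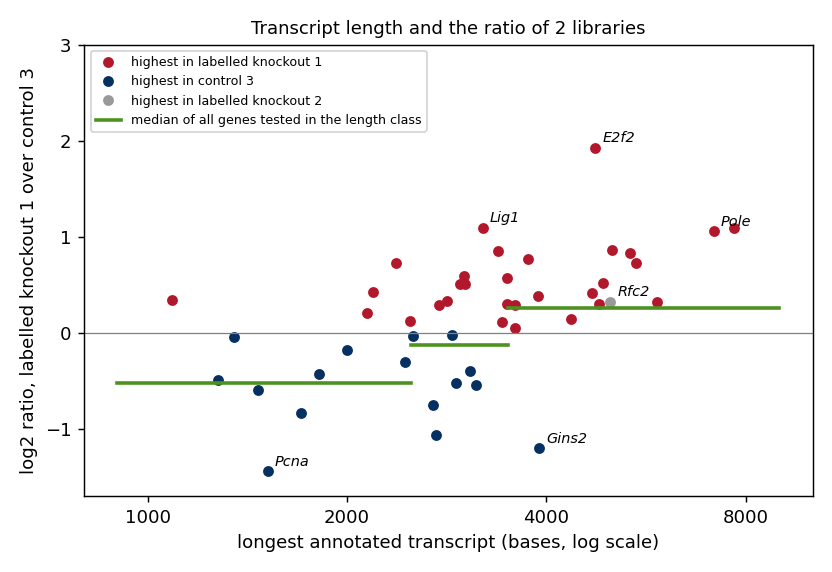
Log2 ratio of the labelled knockout 1 to control 3 (vertical axis) against the longest annotated transcript in bases (horizontal log axis) for the 47 genes, coloured by the library with the highest level. Green bars give the median of all genes tested up to 2500 bases (-0.52), from 2500 to 3500 bases (-0.12) and above (0.26); genes highest in control 3, such as Pcna and Gins2, lie below 0.

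Other genes of the pathway, listed by function, also gave no calls in edgeR. Of 40 further genes of the replication machinery tested, the labelled knockout 1 and control 3 were the top pair for 16. This was 40.0%, against 7.36% of all genes tested, and the median log2 fold change was 0.02. Both labelled knockouts lay above all controls for 2 of the 40 and below for 5, against 9.85% and 10.4% of all genes. Pole4, a small subunit of polymerase epsilon, was at 22.8 and 22.6 CPM in the labelled knockouts, against 33.3 to 39.5 CPM in the controls, and Dbf4, the activator of the Cdc7 kinase, at 28.6 and 22.8 CPM in the labelled knockouts, against 11.3 to 20.5 CPM in the controls, with no overlap in either gene. The 20 further genes of nucleotide supply had a median of -0.17 and 4 with that top pair, and their smallest p-values belonged to Shmt2, a mitochondrial enzyme of one-carbon metabolism, at 72.3 and 47 CPM in the labelled knockouts, against 73.1 to 107 CPM in the controls, and Dck, deoxycytidine kinase, at 41.6 and 90.4 CPM in the labelled knockouts, against 73.6 to 201 CPM in the controls. Of 25 G1/S regulators 12 (48.0%) had the top pair, with a median of 0.08. Tfdp2, a partner of E2F proteins, was at 50.6 and 20.8 CPM in the labelled knockouts, against 14.6 to 18.5 CPM in the controls, and E2f5, a repressive E2F, at 4.88 and 7.19 CPM in the labelled knockouts, against 9.63 to 12 CPM in the controls.

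Of the 7 inhibitors of cyclin-dependent kinases, 1 (Cdkn2c) had the labelled knockout 1 and control 3 as its top pair of libraries. This was 14.3%, against 7.36% of all genes tested, and the median log2 fold change was 0.14. Cdkn2d was at 12.2 and 16.2 CPM in the labelled knockouts, against 5.96 to 9.93 CPM in the controls, and Cdkn2c at 34.9 and 23.2 CPM in the labelled knockouts, against 8.87 to 25.9 CPM in the controls. Among 11 genes of the replication checkpoint and fork repair 6 had that pair, and Brca2, a gene of homologous recombination, was at 29.9 and 6.76 CPM in the labelled knockouts, against 8.93 to 11.9 CPM in the controls. Wee1, a kinase that restrains mitosis, was at 28.9 and 15.6 CPM in the labelled knockouts, against 12 to 23.9 CPM in the controls. Histone genes, of which 13 of 23 were tested, had 1 with that pair and a median of 0.01. The variant gene H2afx was at 45.6 and 33.8 CPM in the labelled knockouts, against 22.4 to 32.3 CPM in the controls, and Hist1h2bc at 18.1 and 47.8 CPM in the labelled knockouts, against 41.4 to 67.7 CPM in the controls.

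Genes of the next phases, G2 and mitosis, were placed differently in the labelled knockout 2. All 23 tested of 24 were above control 1 and control 2 there, against 38.9% of all genes tested, and their median log2 ratio to control 1 was 1.70, against 0.03 for the 47 replication genes. Their mean deviation was 1.71 and 0.38 in the labelled knockouts, against -1.24, -1.18 and 0.33 in the controls. The labelled knockout 2 was thus closest to control 3 in mitotic genes, and to controls 1 and 2 in replication genes. The mitotic mean minus the replication mean was 1.06 and 0.69 in the labelled knockouts and -0.85, -0.75 and -0.14 in the controls, with no overlap. After correction for transcript length it was 0.94 and 0.74 in the labelled knockouts and -0.82, -0.79 and -0.08 in the controls. This difference was formed after the values were seen and was not tested. EdgeR called 0 of the 23 and DESeq2 called 3, all higher, against 1.06% of its genes: Mki67, Cenpf and Aspm, with DESeq2 adjusted p of 0.0321, 0.0376 and 0.0265; in edgeR their adjusted p-values were 0.575, 0.572 and 0.503. Mki67, the gene of the proliferation marker Ki-67, was at 789.9 and 126 CPM in the labelled knockouts, against 33, 51.4 and 115 CPM in the controls, which gave 2.78 (SE 0.851) as its log2 fold change. Without the labelled knockout 1 the log2 fold change was 0.90 for Mki67, 1.03 for Cenpf and 1.37 for Aspm. Cenpf, a kinetochore protein gene, was at 92.1 and 16.6 CPM in the labelled knockouts, against 3.58 to 14 CPM in the controls, and Aspm, a spindle pole protein gene, at 54.5 and 14.9 CPM in the labelled knockouts, against 3.21 to 10.2 CPM in the controls, and the longest transcripts of the 3 genes are 10061, 11130 and 9867 bases. Ccnb2, a mitotic cyclin with a transcript of 1531 bases, was at 20.9 and 20.6 CPM in labelled knockouts 1 and 2, against 3.9, 3.8 and 10.5 CPM in controls 1 to 3. For 11 of the 23 both labelled knockouts lay above all controls, against 9.85% of all genes tested, and for 7 after correction for length, against 8.58%.

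**Figure D5:**
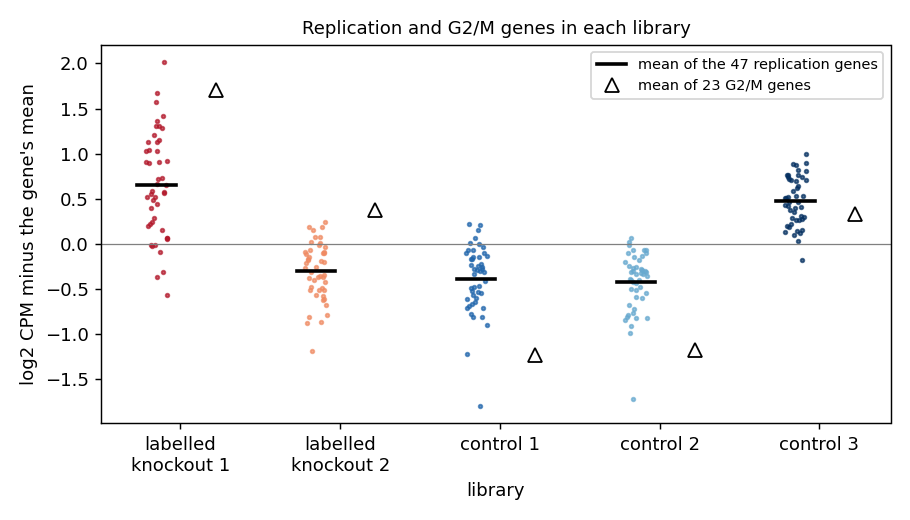
Log2 CPM minus the gene's mean (vertical axis) in each library, labelled knockouts on the left; dots are the 47 replication genes, black lines their mean and open triangles the mean of 23 G2 and mitosis genes. The lines are at 0.65 and -0.31 in the labelled knockouts and at -0.39, -0.43 and 0.48 in the controls, and the triangles at 1.71 and 0.38, and at -1.24, -1.18 and 0.33.

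Markers of other cell types were summed per library, and their part in the results was not tested. Over 11 lists 60 markers were tested. The labelled knockout 1 and control 3 were the top pair for 4 of them, against 7.36% of all genes tested. The 4 were 2 neuronal markers, 1 endothelial marker and Cd4. Oligodendrocyte precursor and neural progenitor markers, of which non-dividing oligodendrocytes also express Olig1 and Sox10, summed to 551.6 and 157 CPM in the labelled knockouts and to 339.7, 414 and 95.1 CPM in the controls. Oligodendrocyte markers gave 12980 and 4738 CPM in the labelled knockouts and 10860, 9839 and 1320 CPM in the controls. The T and NK cell markers Cd3e, Cd3g, Cd8a and Nkg7 had no count in any library, and Cd4, which macrophages can express, gave 9.28 and 8.21 CPM in the labelled knockouts and 4.9, 4.31 and 73.7 CPM in the controls.

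Monocyte markers summed to 2299 and 1430 CPM in the labelled knockouts and to 363 to 1789 CPM in the controls. Nearly all of this was Fn1, which overlapped between groups. Ace stood at 38.5 and 13.1 CPM in the labelled knockouts and at 0.943 to 2.45 CPM in the controls. Spn was at 15.2 and 8.32 CPM in the labelled knockouts and at 1.51 to 2.79 CPM in the controls. Ccr2 overlapped, at 0.773 and 1.89 CPM in the labelled knockouts and 0.634 to 1.64 CPM in the controls. The monocyte markers Ly6c2, Plac8, Treml4, Ear2 and S100a4 had at most 2 reads in any library. DESeq2 called 2 of the 4 monocyte markers tested, both higher, against 1.06% of its genes. Border macrophage markers summed to 487 and 1706 CPM in the labelled knockouts and to 329.8 to 685 CPM in the controls. Of the 6 tested, F13a1 lay above all controls, at 79.1 and 185 CPM against 23.9 to 47 CPM. Lyve1 lay below and 4 overlapped. DESeq2 called 1 of the 6, higher, against 1.06% of its genes. Neutrophil markers summed to 3.45 and 28.2 CPM in the labelled knockouts and to 3.94 to 5.51 CPM in the controls. Astrocyte markers gave 129.6 and 101 CPM in the labelled knockouts and 51.3 to 241 CPM in the controls, and neuronal markers 175 and 45.3 CPM in the labelled knockouts and 27.7 to 71.6 CPM in the controls. Endothelial markers gave 137 and 96.8 CPM in the labelled knockouts and 51.4 to 134 CPM in the controls. Of the 5 tested, Vwf lay above all controls, at 55.6 and 81.8 CPM against 8.25 to 18.6 CPM. Pecam1 lay below and 3 overlapped. Mural and fibroblast markers gave 34.3 and 15 CPM in the labelled knockouts and 28 to 77.4 CPM in the controls. Of the 6 tested, 4 lay below all controls, against 10.4% of all genes, and 2 overlapped. DESeq2 called 1 endothelial marker higher and 1 mural or fibroblast marker lower, against 1.06% and 0.623% of its genes. Choroid plexus markers lay above all controls in both labelled knockouts for 7 of 7 genes tested, against 9.85% of all genes, and DESeq2 called all 7, against 1.06%. Their sum was 169 CPM in labelled knockout 1 and 226 CPM in labelled knockout 2, while the controls held 7.54 to 27.1 CPM. Of the 47 replication genes, only E2f2 and Rfc2 had groups that part in the same direction, against 9.85% of all genes. Corrected for transcript length, only E2f2 did, and narrowly, with the labelled knockout 2 at 12.5 CPM and control 3 at 12.3 CPM. A link between these genes and choroid plexus markers was not tested.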

How the data were processed

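The authors deposited a table of raw counts, whole numbers of reads for each gene symbol with no sign of normalization in the values. Per the submitters' processing notes FastQC, STAR, HTSeq and mm10 were used, with versions, annotation and strand setting not given in the sources used here. Trizol extraction and a NEBNext Ultra library kit are named in the labels' protocols. Depth was 13947500 to 19577217 counts, where 1 CPM is 13.5 to 18.5 reads.

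edgeR 4.0.16 (R 4.3.3) ran on all 5 libraries: filterByExpr, TMM, robust quasi-likelihood F test, two-sided, 3 residual degrees of freedom, Benjamini-Hochberg adjustment over 12543 genes, threshold 0.05. A standard error is the log2 fold change over the square root of F. DESeq2 1.42.0 and limma 3.58.1 (voom) were alternatives. Log2 CPM used a prior count of 2. Coordinates, overlaps and lengths came from GENCODE M21 (GRCm38), which matched 99.7% of symbols, and promoters from RefSeq. The length correction (loess, span 0.3) and DESeq2 with libraries left out were chosen after seeing the data. Fits were tested on simulated data. The genes and lists were chosen with earlier results of these data known. Values in every library are given for up to 3 genes per role with the smallest edgeR p, and others were added; in the pathway lists up to 2 genes and those called by DESeq2 are named, and cell type lists are given by summed level, with some genes named after their values were seen. Sample titles gave the groups and library numbers; the title of control 3 carries 2 numbers, and its library number was used. All library pairs differed beyond counting noise (chi-square per degree of freedom at least 53.4).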

Additional observations from a re-analysis of the deposited data

How the results depend on the processing

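None of the 47 genes was called by edgeR with either other scaling, either other filter, a replicate block, any library left out or the length correction, by limma-voom, or by DESeq2 on all libraries. DESeq2 called 232 genes in the whole table, and edgeR 4 with the replicate block, against 0 by edgeR without it. DESeq2 called 1 of the 47 without labelled knockout 2 (E2f2, against 3.71% of genes) and 3 without control 3 (Clspn, E2f2 and Rrm2, against 2.23%). The number of the 47 whose groups did not overlap, 3 in all libraries, ranged from 4 to 33 with a library left out. The shares over all genes moved as well. Without labelled knockout 2 it was 33 (31 above and 2 below, against 35.4% and 36.2% of genes). Without control 3 it was 23 (22 above and 1 below, against 16.4% and 15.9%). Without labelled knockout 1 it was 17 (2 above and 15 below, against 24.8% and 25.6%). Without control 2 it was 7 (2 above and 5 below, against 14.9% and 17.1%). Without control 1 it was 4 (2 above and 2 below, against 12.6% and 13.6%). With no filter on low counts it was 4 (2 above and 2 below, against 9.49% and 9.62%). The median log2 fold change of the 47 ranged from -0.30 to 0.65 with a library left out.

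Deviations of same-numbered libraries from their group means correlated at 0.15 and -0.56. Within groups this small the correlations constrain each other, so they cannot tell whether shared library numbers pair the samples. The title of control 3 also says replicate 2, and its deviations correlated at 0.47 with those of labelled knockout 2; with 2 labelled knockouts, 1 mirrors the other. The replicate block used the library numbers, so control 3 stood alone in its block and added nothing to the fold change. With the replicate block the median was 0.49, and the log2 fold change turned positive for Cdt1 (0.11), Gins2 (0.15) and Rpa2 (0.16). With control 3 left out and no block, the log2 fold changes of these genes were 0.10, 0.069 and 0.18. Corrected for length, that of Rpa2 was 0.0107. Among the genes named by the rule, with a library left out the log2 fold change took both signs, from -0.46 to 1.14 for Orc1, -0.35 to 1.23 for Cdc6, -0.60 to 0.10 for Cdt1, -0.76 to 1.29 for Mcm5, -0.47 to 0.99 for Mcm7, -0.60 to 1.37 for Mcm10, -0.23 to 0.56 for Gins1, -0.74 to 0.069 for Gins2, -0.85 to 1.19 for Pola1, -0.48 to 0.79 for Pold1, -0.67 to 1.73 for Pole, -0.53 to 1.55 for Lig1, -0.49 to 0.18 for Rpa2, -0.30 to 1.30 for Rrm1, -0.0158 to 0.65 for Chaf1b, -0.35 to 1.29 for Dtl, -0.12 to 2.14 for Clspn, -0.69 to 1.48 for Brca2 and -0.0853 to 0.84 for Wee1. The causes were not tested.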
